A study of Mus musculus with 6 samples.

Results

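The genes described here serve the blood-brain barrier, the lining of brain capillaries that decides which molecules pass from blood into brain tissue. They are the 9 rows of the deposited expression table named Slc2a1, Mfsd2a, Abcb1a, Abcg2, Slco1c1, Slco1a4, Slc7a5, Cldn5 and Pecam1, out of 32201 genes in the table. The members were chosen by name, not by a rule on measured values, though with earlier results of these data known. All 9 had a mean of at least 1 FPKM (fragments scaled by transcript length and sequencing depth), the level required for testing, as did 13153 genes in all. Of the 9, 7 encode membrane carriers or pumps, while Cldn5 encodes a junction protein and Pecam1 an adhesion molecule of endothelial cells. The libraries were made from whole hippocampus, so the endothelial cells were not separated from neurons and glia.

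RNA sequencing was done on the hippocampus of male C57BL/6N mice, an inbred strain, aged 8 weeks. All the mice behind these libraries had gone through chronic unpredictable mild stress, a changing schedule of mild stressors used in rodents to model depression. Of the 6 libraries, 3 belong to a group treated with baicalin (20 mg/kg) and 3 to a group that received saline instead. Baicalin, a plant flavonoid carrying a sugar acid, is extracted from Chinese skullcap, and the comparison asks what it does to hippocampal transcripts of stressed animals. An unstressed group named in the labels is not analysed here, so no value below compares stress with its absence. The labels do not say that each library is a separate animal, so the p-values measure only the spread between these libraries, which may in part be technical.

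Brain capillary endothelium is sealed by tight junctions, of which claudin-5 (Cldn5) is the main strand protein, and it takes up few blood-borne particles in vesicles. Nutrients therefore cross through dedicated carriers, while ATP-driven pumps of the ABC family return many drugs and toxins to the blood. Several of these genes are also transcribed outside endothelium, Slc2a1 and Slco1c1 for example in astrocytes or choroid plexus, and in bulk tissue fewer cells of a type and less RNA per cell cannot be told apart.

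The libraries held 61303274 to 67957752 counts, and the members had between 730 and 7256 counts in a library. All 14 genes of a list of hippocampal neurons were above the test level, with a summed level of 312 to 370.0 FPKM with baicalin and 363 to 384 FPKM with saline. They had 6 positive and 8 negative log2 changes, from -0.49 to 0.41. At an unadjusted p under 0.05, 4 of the list were lower and 0 higher, against 5.46% of all genes that were lower, and 0 of the list were called in edgeR. Those with the smallest p were Zbtb20, a transcription factor gene of hippocampal neurons, at a log2 change of -0.49 ± 0.15 (SE), Fibcd1 at -0.35 ± 0.11 and Neurod6 at -0.21 ± 0.07, and their part in the members' values was not tested. Levels below are CPM, counts scaled to a common library size after TMM correction for differences in RNA composition. The mitochondrial share of counts was between 7.71% and 8.69% in baicalin libraries and between 7.18% and 7.82% in saline libraries, which overlap; their part in the members' values was not tested. Log2 changes are baicalin minus saline from edgeR's quasi-likelihood test over all 13153 genes, with p-values adjusted by the Benjamini-Hochberg method and a threshold of 0.05. At that threshold 0.0456% of genes tested were called, and none of the 9 members was among them.

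Of the members, 2 stood out at an unadjusted p under 0.05, both with higher means under baicalin: Mfsd2a, at 1.48 times its saline level, and Slc2a1, at 1.33 times. The share of all genes tested with an unadjusted p under 0.05 was 11.8%, and 6.34% in the higher direction. DESeq2 called 1 member, Mfsd2a, where it called 1.66% of all genes, and limma on log2(FPKM + 1) called 0. Without saline library 3, 5 members had an unadjusted p under 0.05, all with higher means under baicalin, against 5.59% of all genes in that direction and 10.4% in both. With any other single library left out, the count of members stayed at 2. The 6 positive and 3 negative log2 changes of the members had a median of 0.10, where the median over all genes tested was -0.00062 and 49.8% were positive. Scaling by TPM lowered values throughout, to a median of -0.081 over all genes and 0.025 over the members, so medians under it are read against -0.081. With TMM scaling, the members' median was 0.011 without saline library 2 and 0.19 without saline library 3.

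Mfsd2a (ENSMUSG00000028655, chromosome 4, 122946850 to 122961188 in mm10, minus strand) encodes the sodium-dependent carrier that brings lysophosphatidylcholine with docosahexaenoic acid into the brain. The same protein is known for holding down vesicle uptake in barrier endothelium. Its level was 23.9, 27.1 and 30.0 CPM in baicalin libraries 1, 2 and 3, and 17.7, 19.6 and 17.3 CPM in saline libraries 1, 2 and 3. Every baicalin library lay above every saline library. The means were 27.0 ± 3.02 CPM with baicalin and 18.2 ± 1.20 CPM with saline (SD, n = 3 each), and the fold of 1.48 had a 95% interval of 1.25 to 1.76 before any adjustment. The log2 change of 0.57 ± 0.10 (SE) ranked 58 of 13153 by p, with an adjusted p of 0.235 in edgeR, and 3.09% of genes tested had a larger change in size. In DESeq2 the log2 change was 0.57 ± 0.12 with an adjusted p of 0.000429, while the adjusted p ranged from 0.111 to 0.576 in the edgeR and limma alternatives.

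Slc2a1 (ENSMUSG00000028645, chromosome 4, 119108711 to 119137983, plus strand) encodes GLUT1, the carrier through which glucose enters the brain. It measured 90.8, 99.8 and 119.9 CPM in baicalin libraries 1 to 3 and 66.5, 81.0 and 85.2 CPM in saline libraries 1 to 3. The groups did not overlap, though baicalin library 1 and saline library 3 lay close together, and the spread within each group was wide. Means were 103 ± 14.9 CPM against 77.6 ± 9.85 CPM (SD, n = 3 each), a fold of 1.33 with a 95% interval of 1.07 to 1.66. The log2 change was 0.42 ± 0.13 (SE) with an adjusted p of 0.360 in edgeR, and it lay between 0.30 (without baicalin library 3) and 0.50 (without baicalin library 1) when 1 library was left out. DESeq2 gave it an adjusted p of 0.0670. Of the genes tested, 6.01% had a larger change in size.

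Both genes lie on chromosome 4, 3809 kb apart. Because these were the members with the highest positive changes, the stretch before each gene's start is shown, from 250 to 51 bases upstream of the RefSeq start, 5′ to 3′ on the gene's own strand (RefSeq, GRCm38.p6, the assembly also called mm10). For Slc2a1 it is chr4:119108495-119108694 and for Mfsd2a chr4:122961239-122961438. Capitals mark the single ACGTG, which is only 1 form of the core of the hypoxia response element. Other forms of that core, such as GCGTG, were not part of the search. GCGTG or its reverse complement CACGC can be read in both stretches, and its share over all promoters was not computed.
Slc2a1: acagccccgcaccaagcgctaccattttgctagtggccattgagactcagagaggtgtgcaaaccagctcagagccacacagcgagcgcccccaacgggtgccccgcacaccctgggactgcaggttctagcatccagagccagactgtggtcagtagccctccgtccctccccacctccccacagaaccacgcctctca
Mfsd2a: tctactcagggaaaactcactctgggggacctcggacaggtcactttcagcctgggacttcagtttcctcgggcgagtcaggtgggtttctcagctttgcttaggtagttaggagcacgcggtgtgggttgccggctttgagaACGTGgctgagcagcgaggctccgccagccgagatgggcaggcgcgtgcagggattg
These stretches were searched on both strands for ACGTG, for the GC box GGGCGG, for the TATA box TATAAA and for the glucocorticoid receptor core AGAACA. The stretch of Mfsd2a held 1 ACGTG and none of the other motifs searched for. That of Slc2a1 held none of the motifs searched for. Bases nearer the start than 51 were not searched, so motifs there, a TATA box included, would be missed. Over 32851 promoters and the same 200 bases, 12.9% held ACGTG, 24.6% GGGCGG, 9.14% TATAAA and 13.2% AGAACA. G and C made up 62.5% of the Slc2a1 stretch and 60.0% of the Mfsd2a stretch, against a median of 51.5% over all promoters. Inside the stretch of Mfsd2a begins 4933421A08Rik, a noncoding transcript on the opposite strand, which had 12, 20 and 3 counts in the baicalin libraries and 0, 12 and 0 in the saline libraries. Such counts are too low for a comparison. Antisense transcripts within Slc2a1, Gm12868 and Gm12867, had at most 15 counts in a library.

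**Figure D1:**
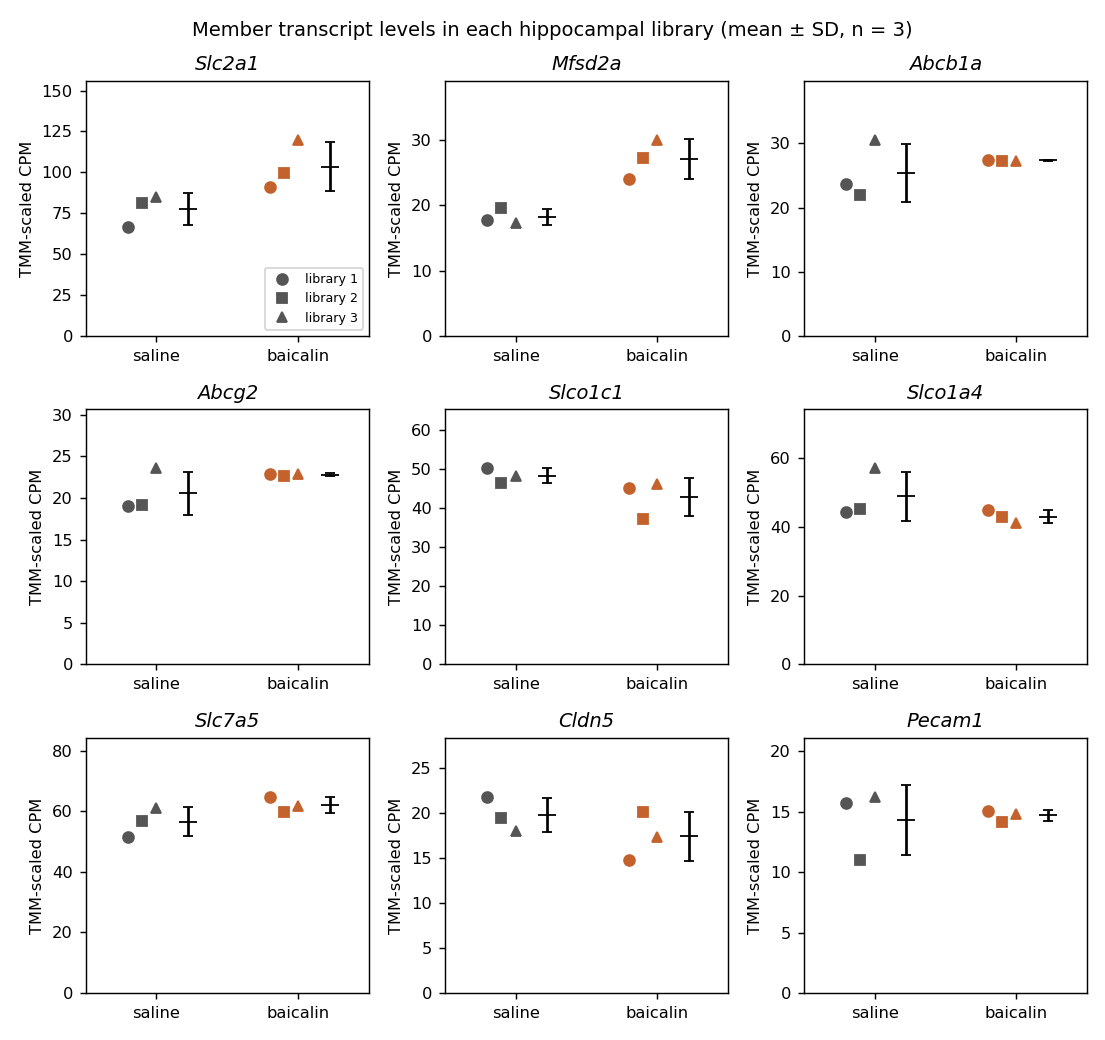
Level of each member in TMM-scaled CPM (linear axis from 0) in the 3 saline (grey) and 3 baicalin (orange) libraries, with symbols for library number and a bar for the mean ± SD. Mfsd2a and Slc2a1 separate upward, Slco1c1 separates downward by a narrow gap, and the other 6 members overlap between groups.

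The remaining nutrient and hormone carriers differed less. Slc7a5, whose product LAT1 carries large neutral amino acids such as leucine and the drug L-DOPA, measured 64.9, 59.7 and 61.7 CPM with baicalin and 51.6, 57.0 and 61.1 CPM with saline. The groups overlapped only through saline library 3, which lay between baicalin libraries. Its fold was 1.10 (95% interval 0.967 to 1.25), with an adjusted p of 0.519 in edgeR. Slc3a2, which encodes the heavy chain that LAT1 needs to reach the membrane, averaged 92.8 ± 3.79 CPM with baicalin and 95.7 ± 4.78 CPM with saline, a log2 change of -0.04 ± 0.06 (SE); it was named for this role after its values were seen.

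Slco1c1 encodes OATP1C1, which carries thyroxine into the brain. It measured 45.0, 37.2 and 46.2 CPM in the baicalin libraries and 50.1, 46.2 and 48.2 CPM in the saline libraries. No baicalin library reached a saline library, but baicalin library 3 (46.20) and saline library 2 (46.24) were almost equal and baicalin library 2 was well below the rest. The fold was 0.889 (95% interval 0.762 to 1.04), with an adjusted p of 0.506 in edgeR. Without baicalin library 2 the log2 change went from -0.17 to -0.079. Slco1a4, a related carrier of steroid conjugates and other organic anions found on barrier endothelium, measured 44.7, 42.9 and 41.1 CPM with baicalin against 44.3, 45.3 and 56.9 CPM with saline. Saline library 3 was high and the other 5 libraries lay close together. The log2 change of -0.19 ± 0.11 (SE, adjusted p = 0.521 in edgeR) was -0.061 without that library.

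The 2 efflux pumps had closely similar profiles. Abcb1a encodes P-glycoprotein, the pump that keeps many lipophilic drugs out of the brain, and measured 27.4, 27.3 and 27.3 CPM in the baicalin libraries. With saline it measured 23.7, 22.0 and 30.6 CPM, so that the baicalin values fell inside the saline range. Abcg2, which encodes the breast cancer resistance protein, a second pump of the same face of the cell, measured 22.8, 22.7 and 22.9 CPM with baicalin and 19.0, 19.2 and 23.6 CPM with saline. For both pumps saline library 3 was the highest of all 6 libraries and the other saline libraries were the lowest. Folds were 1.07 (95% interval 0.874 to 1.32) for Abcb1a and 1.11 (0.940 to 1.31) for Abcg2, with adjusted p of 0.757 and 0.583 in edgeR. Without saline library 3 both log2 changes were 0.26 ± 0.07 (SE), with an adjusted p of 0.425 in edgeR for each.

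Reads can be shared between near-identical relatives, and the sources used here do not say how such reads were assigned. Abcb1b, the other mouse gene for P-glycoprotein, had between 335 and 500 counts with baicalin and between 313 and 381 with saline. It lay below the test level at a mean of 0.628 FPKM. Slco1a5, a neighbour and relative of Slco1a4, had at most 38 counts in a library.

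Neither of the structural members differed beyond its spread. Cldn5 measured 14.7, 20.1 and 17.3 CPM with baicalin and 21.8, 19.5 and 17.9 CPM with saline. Baicalin library 1 was the lowest and saline library 1 the highest, with the others mixed. The fold was 0.881 (95% interval 0.704 to 1.10; adjusted p = 0.613 in edgeR), and the log2 change ran from -0.30 without baicalin library 2 to -0.081 without baicalin library 1. Pecam1, which encodes CD31 on endothelial cells, platelets and some leukocytes, measured 15.1, 14.2 and 14.8 CPM with baicalin and 15.8, 11.02 and 16.2 CPM with saline. Saline library 2 was the low value, and the fold was 1.02 (95% interval 0.795 to 1.32; adjusted p = 0.937 in edgeR). The log2 change of Pecam1 was 0.04 and turned to -0.12 without saline library 2.

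**Figure D2:**
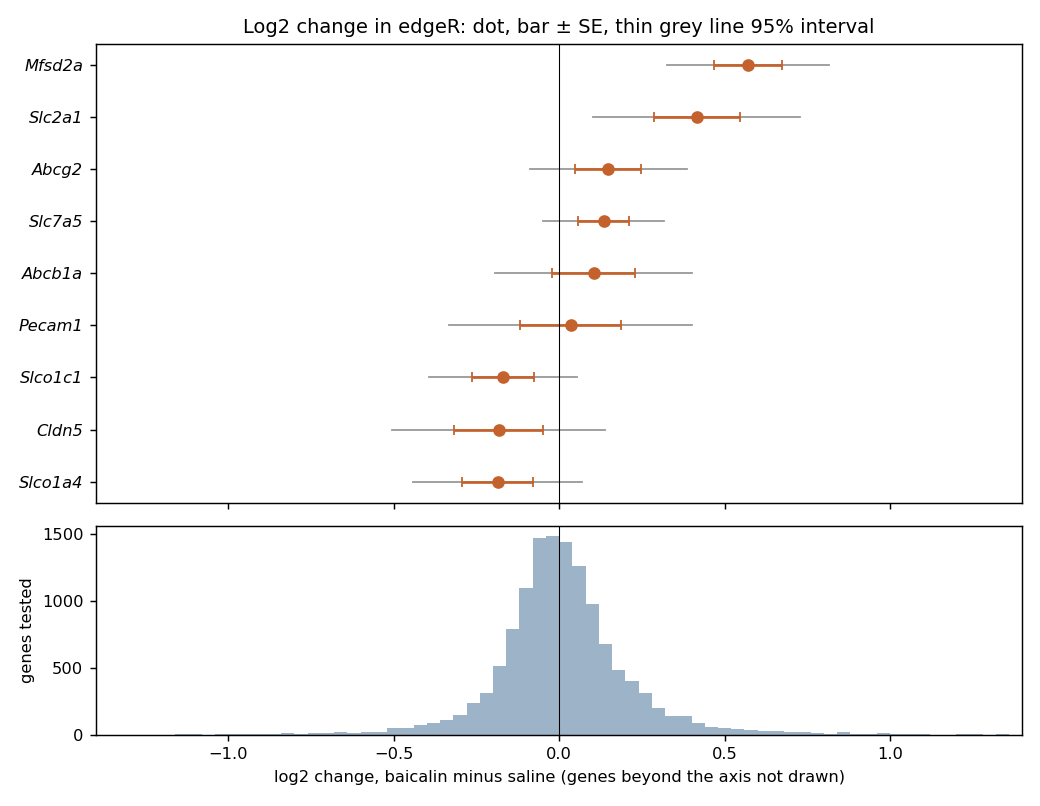
Log2 change of each member in edgeR (upper panel: dot, thick bar ± SE, thin line 95% interval without adjustment) above a histogram of the log2 changes of all genes tested (lower panel, same horizontal axis, genes beyond the axis not drawn). The intervals of Mfsd2a and Slc2a1 lie above 0 and those of the other 7 members include 0.

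By length-corrected level, the members ranged over about an order of magnitude. Slc2a1 was the most abundant, at 22.6 ± 4.40 FPKM over the 6 libraries, and Slc7a5 followed at 14.0 ± 1.06 FPKM. Their ranges did not overlap. Cldn5 (11.5 ± 1.57 FPKM), Mfsd2a (8.80 ± 2.00 FPKM), Slco1c1 (7.68 ± 0.743 FPKM) and Slco1a4 (6.27 ± 0.791 FPKM) came next, each with a range that overlapped its neighbours in this order, as did those of Slc7a5 and Cldn5. Abcb1a was lower, at 4.22 ± 0.489 FPKM, with no overlap with its neighbours on either side. Abcg2 (2.33 ± 0.220 FPKM) and Pecam1 (2.04 ± 0.265 FPKM) were lowest and overlapped each other. The order of the means was the same in both groups except that Mfsd2a stood below Slco1c1 with saline (7.10 against 8.16 FPKM) and above it with baicalin (10.5 against 7.21 FPKM). In FPKM these 2 genes overlapped in neither group.

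Likeness between genes was measured as the root mean square difference of their log2 CPM over the 6 libraries, each gene centred on its own mean. Among members the closest pair was Abcb1a and Abcg2, at 0.055 on the log2 scale, followed by Abcg2 and Slc7a5 at 0.067. Slc2a1 and Mfsd2a differed by 0.14, and the farthest pair was Mfsd2a and Slco1a4 at 0.42. The tested genes outside the members whose profiles lay nearest to the members' mean profile were Hmgb1 (0.015), Rpl5 (0.018), Utp4 (0.021), Mri1 (0.025) and Mcts1 (0.026). Nearest to Slc2a1 alone were Tceal3 (0.067), Folh1 (0.071), Chrac1 (0.075), Mcts2 (0.082) and F3 (0.084). None of these 10 genes is a junction, carrier or endothelial gene of the lists used here.

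A list of 30 endothelial genes that holds no carrier or junction gene served as a measure of endothelial RNA, though the share of other cell types in it was not tested. Of these genes, Kdr, Vwf, Sox17 and Robo4 were among those below the test level, and 19 were above it. Their mean log2 CPM, centred over the libraries, was -0.026, -0.086 and 0.048 in baicalin libraries 1 to 3 and 0.0084, -0.090 and 0.15 in saline libraries 1 to 3, so it was highest in saline library 3 and the groups overlapped. Relative to this mean, Mfsd2a, Slc2a1 and Abcg2 were higher in every baicalin library than in any saline library, with differences of group means of 0.61, 0.46 and 0.20 on the log2 scale. That is 3 of 9 members, where 12% of all genes tested did not overlap on this measure, 9.93% of them higher and 2.09% lower. Slco1c1 overlapped on it. As a ratio to Pecam1 alone, in CPM, none of the other 8 members separated the groups. The ratio of Mfsd2a was 1.59, 1.91 and 2.02 with baicalin and 1.13, 1.78 and 1.07 with saline, and that of Slc2a1 was 6.03, 7.03 and 8.09 with baicalin and 4.22, 7.35 and 5.25 with saline. Saline library 2, the one with the lowest Pecam1, held the overlapping value for both genes. In CPM without this step, 3 of 9 members did not overlap (Mfsd2a and Slc2a1 higher, Slco1c1 lower) against 19.4% of all genes, 9.93% higher and 9.52% lower. With the endothelial mean as a covariate in edgeR, the log2 changes were 0.56 ± 0.11 (SE, adjusted p = 0.357) for Mfsd2a and 0.45 ± 0.13 (SE, adjusted p = 0.364) for Slc2a1.

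**Figure D3:**
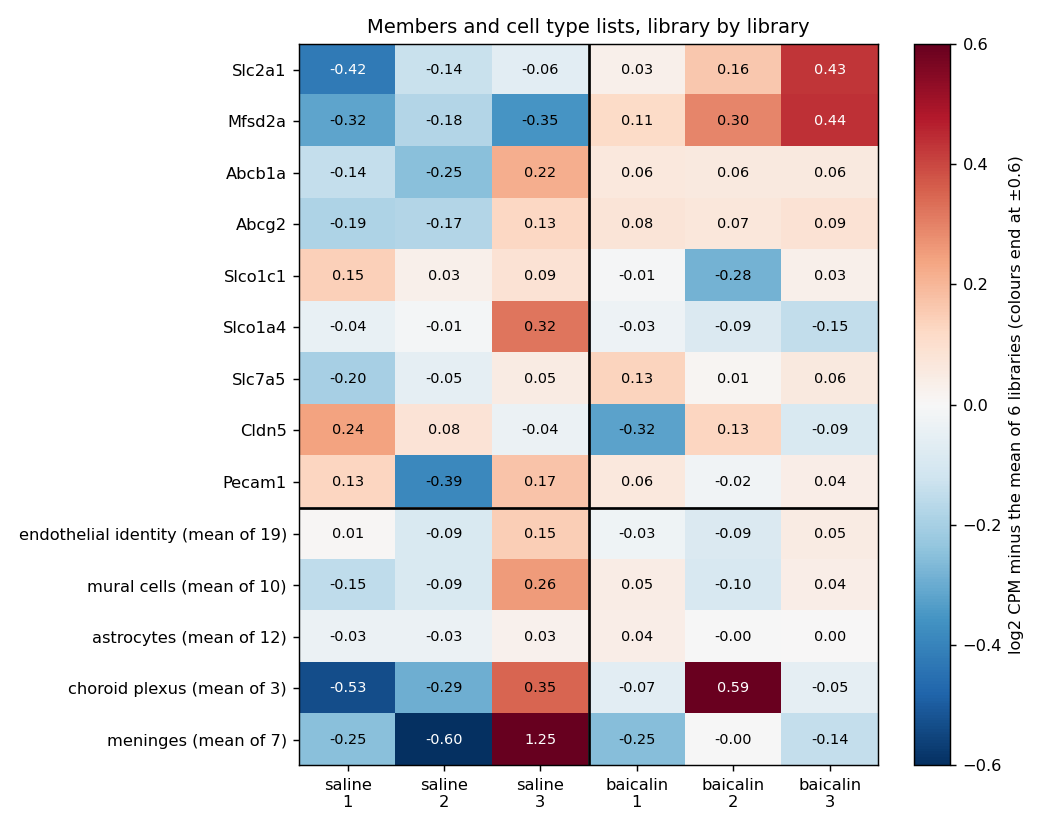
Log2 CPM of each member (upper rows) and mean of 5 cell type lists (lower rows) in every library, each centred on its mean over the 6 libraries, with colours ending at ±0.6. Mfsd2a and Slc2a1 are positive in the 3 baicalin libraries and negative in the 3 saline libraries, while saline library 3 is highest for Abcb1a, Abcg2, Slco1a4 and Pecam1 and for the endothelial, mural and meningeal lists.

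Cell types beside the endothelium were checked in the same way. Pericyte and smooth muscle genes (10 of 14 tested) had a median log2 change of -0.011 and a summed level of 56.3 to 60.7 FPKM with baicalin and 54.1 to 72.4 FPKM with saline. Genes of meningeal fibroblasts (7 of 10 tested, median -0.46) summed to 93.1 to 145.9 FPKM with baicalin and 76.1 to 555.3 FPKM with saline. Their centred mean was 1.25 in saline library 3 and at most -0.0044 in the others. Without that library the median was 0.33. Astrocyte genes (12 of 12 tested, median 0.010, or -0.069 with TPM scaling, beside -0.081 for all genes) summed to 582 to 616 FPKM with baicalin and 572 to 605 FPKM with saline. They had 7 positive and 5 negative changes. At an unadjusted p under 0.05, where 6.34% of all genes tested were higher, 3 astrocyte genes were higher and 0 lower. These were Gjb6, a gap junction gene, at 0.32 ± 0.11 (SE), Fgfr3 at 0.26 ± 0.11 and Aldoc at 0.11 ± 0.04. The other astrocytic gap junction gene, Gja1, was at -0.28 ± 0.19, and the water channel gene Aqp4 at -0.05 ± 0.07; both were named after their values were seen. Choroid plexus genes had 3 of 12 above the test level and summed to 21.9 to 68.2 FPKM with baicalin and 13.0 to 41.4 FPKM with saline. Ttr, the defining gene of that epithelium, varied widely within both groups. No list had a gene at 0 counts in every library, and the part of meningeal, mural, astrocytic or choroid plexus RNA in the members' values was not tested.

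A list of other carriers known from the capillary wall had more negative than positive changes in whole hippocampus. The share of other cell types in these values was not tested. Of 23 on the list 19 were tested, with 7 positive and 12 negative log2 changes, a median of -0.064, and 0 called in edgeR. At an unadjusted p under 0.05, 4 were lower and 0 higher, beside 5.46% of all genes tested that were lower. Slc16a1, which encodes the monocarboxylate carrier MCT1 for lactate and ketone bodies, measured 43.2, 42.3 and 44.0 CPM with baicalin and 51.4, 48.7 and 49.2 CPM with saline. Its groups did not overlap, and its log2 change was -0.21 ± 0.05 (SE, adjusted p = 0.322 in edgeR). The zinc carrier gene Slc39a10 was at -0.17 ± 0.06 (SE). The most abundant of the list was Slc3a2, given above. Without saline library 3 the median of the list was -0.0090.

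Partners of Cldn5 in cell junctions had 14 of 16 tested, 5 positive and 9 negative, with a median of -0.095 and 0 called in edgeR. At an unadjusted p under 0.05 they counted 2 lower and 0 higher, beside 5.46% of all genes tested that were lower. Ctnnd1, which encodes p120-catenin, a binding partner of cadherins, stood at -0.20 ± 0.05 (SE, adjusted p = 0.324 in edgeR). Cgnl1, which encodes paracingulin, was at -0.38 ± 0.15, and Cdh5, which encodes VE-cadherin, at -0.33 ± 0.15 (SE). The most abundant gene of the list was Ctnnb1, which encodes beta-catenin, at 0.30 ± 0.26. The median of the list was -0.16 without saline library 1.

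The endothelial list itself had 8 positive and 11 negative changes among its 19 tested genes, with a median of -0.013 (from -0.10 without saline library 2 to 0.021 without baicalin library 2, and 0.019 if saline library 3 is left out) and 0 called in edgeR. Nos3, which encodes endothelial nitric oxide synthase, measured 5.72, 4.78 and 4.76 CPM with baicalin and 7.38, 7.34 and 7.12 CPM with saline. Its groups did not overlap, and the log2 change was -0.52 ± 0.11 (SE, adjusted p = 0.310 in edgeR). Ly6c1, a surface protein gene of brain capillaries, went the other way at 0.31 ± 0.12, and Eng, which encodes the TGF-beta co-receptor endoglin, was at -0.22 ± 0.10 (SE). Bsg, which encodes basigin and was the most abundant of the list, was at 0.06 ± 0.07.

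Wnt signals from neurons and glia are known to keep barrier endothelium in its state through the receptor Fzd4 and its co-receptors. Of 16 such genes 11 were tested, 4 positive and 7 negative, with a median of -0.14 and 0 called in edgeR. Nkd1, a feedback inhibitor and target of the pathway, was at -0.30 ± 0.09 (SE, adjusted p = 0.347 in edgeR), the co-receptor gene Lrp6 at -0.16 ± 0.07 and the ligand gene Wnt7a at -0.29 ± 0.16. Apcdd1, the most abundant of them, was at 0.05 ± 0.08. Without baicalin library 2 the median was -0.074.

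Mfsd2a is known to hold down caveolae, the membrane pits of vesicle uptake, and 7 of 13 genes of caveolae and of leaky or inflamed vessels were tested. They had 4 positive and 3 negative changes and a median of 0.054 (-0.023 with TPM scaling, beside -0.081 for all genes, and from -0.0028 to 0.11 when 1 library was left out), none called in edgeR and none at an unadjusted p under 0.05. Cavin2 was at 0.24 ± 0.14 (SE), Cavin1 at 0.10 ± 0.15, Cav2 at -0.06 ± 0.11 and the most abundant, Cavin3, at -0.0044 ± 0.11.

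Family relatives of the member carriers and of Cldn5 had 3 positive and 12 negative changes among 15 tested of 32 listed. Their median was -0.076, with 0 called in edgeR. Slc7a11, which encodes the cystine-glutamate exchanger, was at -0.73 ± 0.27 (SE), with its groups apart and saline library 3 the highest at 42.2 CPM. Slc2a6 was at -0.16 ± 0.08, Abcg4 at -0.16 ± 0.08 and the most abundant, the myelin claudin gene Cldn11, at 0.12 ± 0.13. Slc2a3, which encodes the neuronal glucose carrier GLUT3, averaged 152.8 ± 2.73 CPM with baicalin and 143.7 ± 6.51 CPM with saline, a log2 change of 0.09 ± 0.05 (adjusted p = 0.488 in edgeR); it was named after its values were seen, for its role beside GLUT1.

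Slc2a1 and Slc7a5 are textbook targets of the hypoxia response and of the amino acid response through ATF4. Of 17 hypoxia-response genes 14 were tested, with 8 positive and 6 negative changes, a median of 0.0033 (-0.079 with TPM scaling, beside -0.081 for all genes, and from -0.054 to 0.023 when 1 library was left out) and 0 called in edgeR. P4ha1, a collagen prolyl hydroxylase gene, was at -0.22 ± 0.08 (SE), Egln3 at -0.39 ± 0.20, Kdm3a at -0.17 ± 0.09 and the most abundant, Pgk1, at 0.01 ± 0.06. Of 15 amino acid response genes 13 were tested, with 9 positive and 4 negative, a median of 0.023 (-0.056 with TPM scaling, beside -0.081 for all genes, and from -0.0044 to 0.072 when 1 library was left out) and 0 called in edgeR. Ddit3, which encodes CHOP, was at 0.16 ± 0.07, Vldlr at -0.16 ± 0.08, Aars at 0.08 ± 0.04 and the most abundant, Atf4, at 0.15 ± 0.09 (SE).

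**Figure D4:**
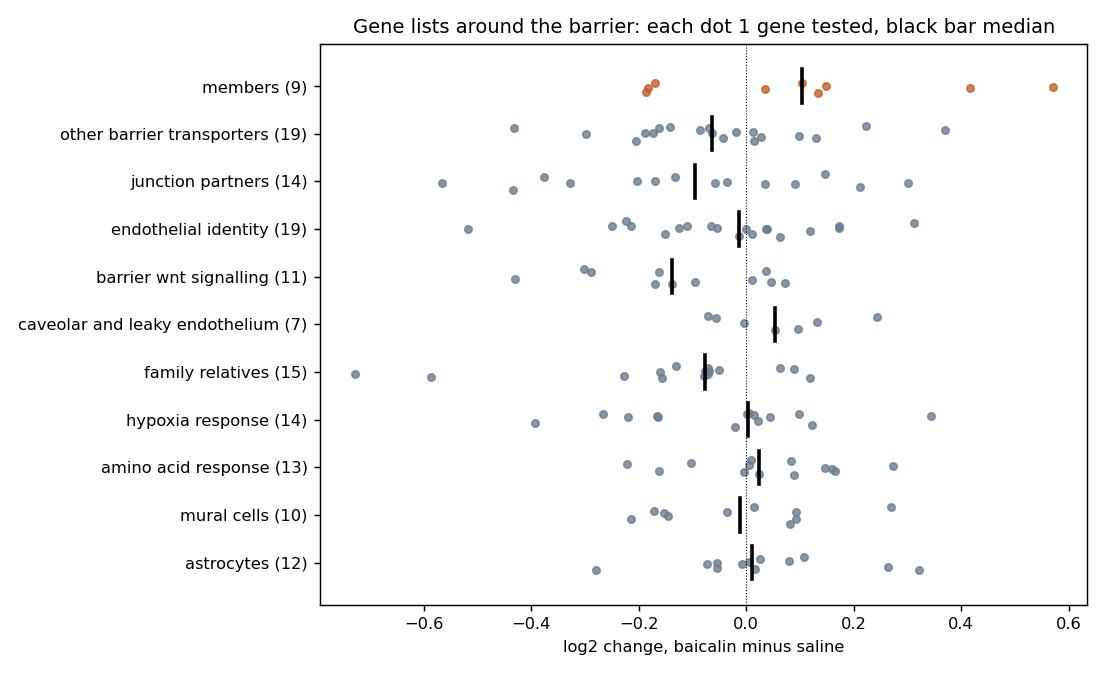
Log2 change (baicalin minus saline, edgeR) of every tested gene in the members and 10 other lists, 1 dot a gene, with a black bar at each list's median and the number tested in parentheses. The members run from -0.19 to 0.57 around a median of 0.10, and Mfsd2a and Slc2a1 are the rightmost dots of the picture.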

How the data were processed

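Ribosomal RNA was depleted with capture probes and libraries were random-primed, per the labels' protocols. The authors deposited whole-number read counts and FPKM values per gene and library. The submitters' processing notes name build mm10 and bcl2fastq 2.0, StringTie, HISAT2, limma and DESeq2, without roles or options; whether counting used strand is unstated in the sources used here. Another 12 columns of per-library values carry names found in no sample label and stayed out.

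The members and gene lists were chosen with earlier results of these data known. Genes averaging 1 FPKM or more over 6 libraries were tested on counts (edgeR 4.0.16, R 4.3.3, TMM, quasi-likelihood, 1 term for treatment, Benjamini-Hochberg over all 13153 genes); the procedure was tested on simulated counts. The SE is |log2 change| over the root of the F statistic, and 95% intervals use the test's degrees of freedom. The rule for named genes took all members, the 3 smallest p and the most abundant gene of each barrier list, and the 5 nearest profiles; 1 gene it takes is not reported here. The 17 alternatives comprised DESeq2 1.42.0, limma 3.58.1 on log2(FPKM + 1) or log2(FPKM + 0.1), other scalings and filters, and each library left out. Promoters came from RefSeq, with entries for 7 of 9 members.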

Additional observations from a re-analysis of the deposited data

How the results depend on the processing

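Each member's log2 change kept its sign in the alternatives tried, except that of Pecam1, which was -0.045 with TPM scaling (where the median of all genes is -0.081) and -0.12 without saline library 2 (from -0.12 to 0.13 over the fits that leave out 1 library). Among these values 1 crossed the threshold, that of Mfsd2a in DESeq2, so that DESeq2 alone called a member (1). Genes called over the table numbered 6, but 0 with a replicate block, 1 with the endothelial covariate, 218 in DESeq2 and 2 to 39 without 1 library. The members' median was 0.025 with TPM scaling (against -0.081 for all genes), -0.024 with at least 5 FPKM (where 6 members remain) and 0.011 to 0.19 without 1 library. Members whose groups do not overlap numbered 2 with the length trend removed, 4 with TPM scaling and 3 to 6 without 1 library, or 3 to 5 relative to endothelial genes, where fewer libraries are compared. The share of all genes is not given for these settings, so these counts have no background beside them. Members at an unadjusted p under 0.05, a count added after seeing the data, numbered 5 without saline library 3. They numbered 3 with TPM scaling and 2 in every other setting. TPM scaling turned the split of all genes at that p from 834 higher and 718 lower to 326 and 1645, and added Slco1c1 to the members there. Same-numbered libraries correlated at 0.123, 0.0795 and 0.0124 in their deviations, and the other pairs at -0.102 to 0.0357. These values do not decide whether the numbers pair the libraries. The replicate block changed no member's call. The other causes were not tested. With 3 libraries a group, the 95% intervals of fold that include 1, those of 7 members, reach from 0.704 to 1.32.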

Other observations

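Arterial and venous endothelial genes had 5 of 10 above the test level, with 3 positive and 2 negative log2 changes, a median of 0.035 (-0.046 with TPM scaling, beside -0.081 for all genes, and from -0.037 to 0.12 when 1 library was left out) and 0 called in edgeR, with 0 at an unadjusted p under 0.05. Efnb2, an arterial ephrin gene, stood at -0.28 ± 0.15 (SE), Gkn3, an arterial marker of the mouse brain, at -0.18 ± 0.26, and Ackr1, a venular chemokine-binding receptor gene and the most abundant of the list, at 0.14 ± 0.12.

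Red cell genes (4 of 5 tested) summed to 248 to 464 FPKM with baicalin and 204 to 477 FPKM with saline, with a median of 0.0084 (from -0.26 to 0.36 when 1 library was left out). Among leukocyte and platelet genes, which could share Pecam1 with the endothelium, 3 of 12 were tested, none of them a platelet gene. They were Itgam at a log2 change of -0.19 ± 0.07 (SE), Lyz2 at -0.61 ± 0.27 and S100a9 at -0.67 ± 0.98. The median was thus the value of Lyz2, -0.61 (-0.19 without saline library 3). The whole list summed to 12.3 to 13.5 FPKM with baicalin and 13.3 to 25.6 FPKM with saline. The part of leukocytes and platelets in the value of Pecam1 was not tested.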
